A study of Homo sapiens with 4 samples.

Results

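The genes described here encode the junctions that hold epithelial cells together, with the splicing and transcription factors that maintain epithelial gene expression. They were 46 listed genes, and their probe sets were taken by annotation alone, as all those annotated to 1 listed symbol and no other. This gave 94 of the 54675 probe sets on the array and covered 43 genes. CTNND1, ESRP2 and F11R had no such probe set and were not analysed here. The analysis kept a gene when its brightest probe set was at or above 6.08 on the log2 scale, the median over the array, and 37 of the 43 genes did, among 12468 of 19775 genes in all.

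The cells were HCT116, an established human colorectal adenocarcinoma line. The groups were cells with shRNA #1 targeting KSR1, cells with shRNA #2 targeting KSR1, cells with a non-targeting control hairpin (shCTRL), and untransfected cells, with 1 array of total RNA each and no replicate array. KSR1 is a scaffold protein of the RAF, MEK and ERK kinases. The 3 transfected groups share plasmid transfection by lipofection and puromycin selection of clones, which untransfected cells lack, and the labels do not say whether an array holds 1 clone or several. Clone, culture, vector and hairpin therefore cannot be told apart on any array.

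Values are the deposited intensities, and differences are on the log2(intensity + 16) scale, which understates those of dim probe sets. Differences were taken between arrays and never between genes, which were only called bright or dim by their intensity. Array medians lay between 50.7 and 52.0, and KSR1 itself measured 141 with hairpin #1 and 171 with hairpin #2, against 211 in shCTRL and 209 in untransfected cells on its brightest probe set. The dimmer KSR1 probe sets did not part the hairpin arrays from the others. In the same order of arrays they read 38.2, 35.9, 36.9 and 35.8, then 27.8, 28.9, 28.3 and 31.0, then 43.7, 51.1, 49.6 and 60.4. A geometric mean over 18 hybridization control probe sets was 1583 with hairpin #1, 2117 with hairpin #2, 1820 in shCTRL and 1770 in untransfected cells. Actin 3' to 5' signal ratios, a sign of RNA integrity, were 2.01, 2.22, 2.09 and 2.68 on the same arrays. Those of GAPDH were nearly level, at 1.14, 1.19, 1.17 and 1.16. The absolute log2 difference between shCTRL and untransfected cells was below 0.52 for 95% of the analysed genes, and this served as the yardstick for differences between single arrays.

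Epithelial sheets are sealed and fastened by several kinds of contact. Tight junctions, built from claudins, occludin and their cytoplasmic plaque, limit the passage of solutes between cells and mark the border of the apical domain. Adherens junctions use cadherins and nectins to couple the actin cytoskeletons of neighbouring cells, and desmosomes use desmogleins, desmocollins and plakin proteins to anchor keratin filaments. Grainyhead-like and OVOL transcription factors and the ESRP splicing factors sustain this programme, while ZEB, SNAI and TWIST factors repress it.

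Of 9 colonic epithelial markers, 8 reached the filter, at very different intensities. Keratins 8, 18 and 19 had intensities of 5683 or more on each of the 4 arrays, and EPCAM, an epithelial adhesion molecule, read 8119 with hairpin #1, 7985 with hairpin #2, 7917 in shCTRL and 7855 in untransfected cells. The intestinal transcription factors CDX1 and CDX2 read 144 to 159 and 79.9 to 131, and KRT20 ranged from 52.5 to 275. The brush border protein VIL1 lay near the array medians at 56.0 to 62.6, and the intestinal cadherin CDH17 was below the filter at 15.5 to 17.9. All 4 leukocyte markers measured were below the filter, and fibroblast markers had median log2 values of 5.64 to 5.75 by array, with COL1A1 at 372 to 433. In bulk RNA, fewer cells that make a transcript and less of it per cell cannot be told apart.

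No junction gene separated both hairpin arrays from both other arrays by 2-fold, and members lay on both sides of the other arrays. The 2-fold gap was met by 0 of 37 members, and by 0.0561% of all analysed genes. Without a size requirement, 11 members lay above both other arrays with both hairpins, beside 22.5% of all genes, and 4 lay below both, beside 18.4%. As shares of the 37 these are 29.7% and 10.8%. Leaving out an array loosens the criterion, so these counts can only stay or grow. The count above was then 26 without hairpin #1, a share of 70.3% beside 39.5% of all genes, and 21 without shCTRL, a share of 56.8% beside 39.7%. Without hairpin #2 it was 13, or 35.1% beside 36.4%. The count below was 12 without hairpin #2, 32.4% beside 31.7% of all genes, 7 without hairpin #1, 18.9% beside 33.4%, and 8 without untransfected cells, 21.6% beside 33.5%. The median difference of hairpin arrays minus other arrays was 0.09 for the members and 0.02 for all genes, and for the members it was 0.18 without hairpin #1 and 0.02 without untransfected cells. In the limma model of both hairpins against both other arrays, 0 members and 0% of all genes passed an adjusted p of 0.05. At an unadjusted p under 0.05 there were 1 of 37 members, PPL, and 882 of 12468 genes. That is a smaller share of the members than of all genes. The smallest limma adjusted p of a member was 0.668.

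With hairpin #2, 24 of 37 members had their highest value of the 4 arrays, a share of 64.9% beside 30.1% of all genes, a count chosen after the values were seen. Hairpin #1 gave 5 highest values, shCTRL 5 and untransfected cells 3. The median member difference of hairpin #2 was 0.17 against hairpin #1, 0.17 against shCTRL and 0.19 against untransfected cells, while the medians over all genes were 0.01, 0.01 and 0.03. Hairpin #1 against shCTRL had a member median of -0.03, and 14 of the 37 were higher. The array with hairpin #2 was also the one with the highest hybridization controls and the highest keratin 8, 18 and 19 values, at 8309, 16755 and 9380, and the part of these in the pattern was not tested. After quantile normalization, which is no test of that part, 23 members were highest there.

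**Figure D1:**
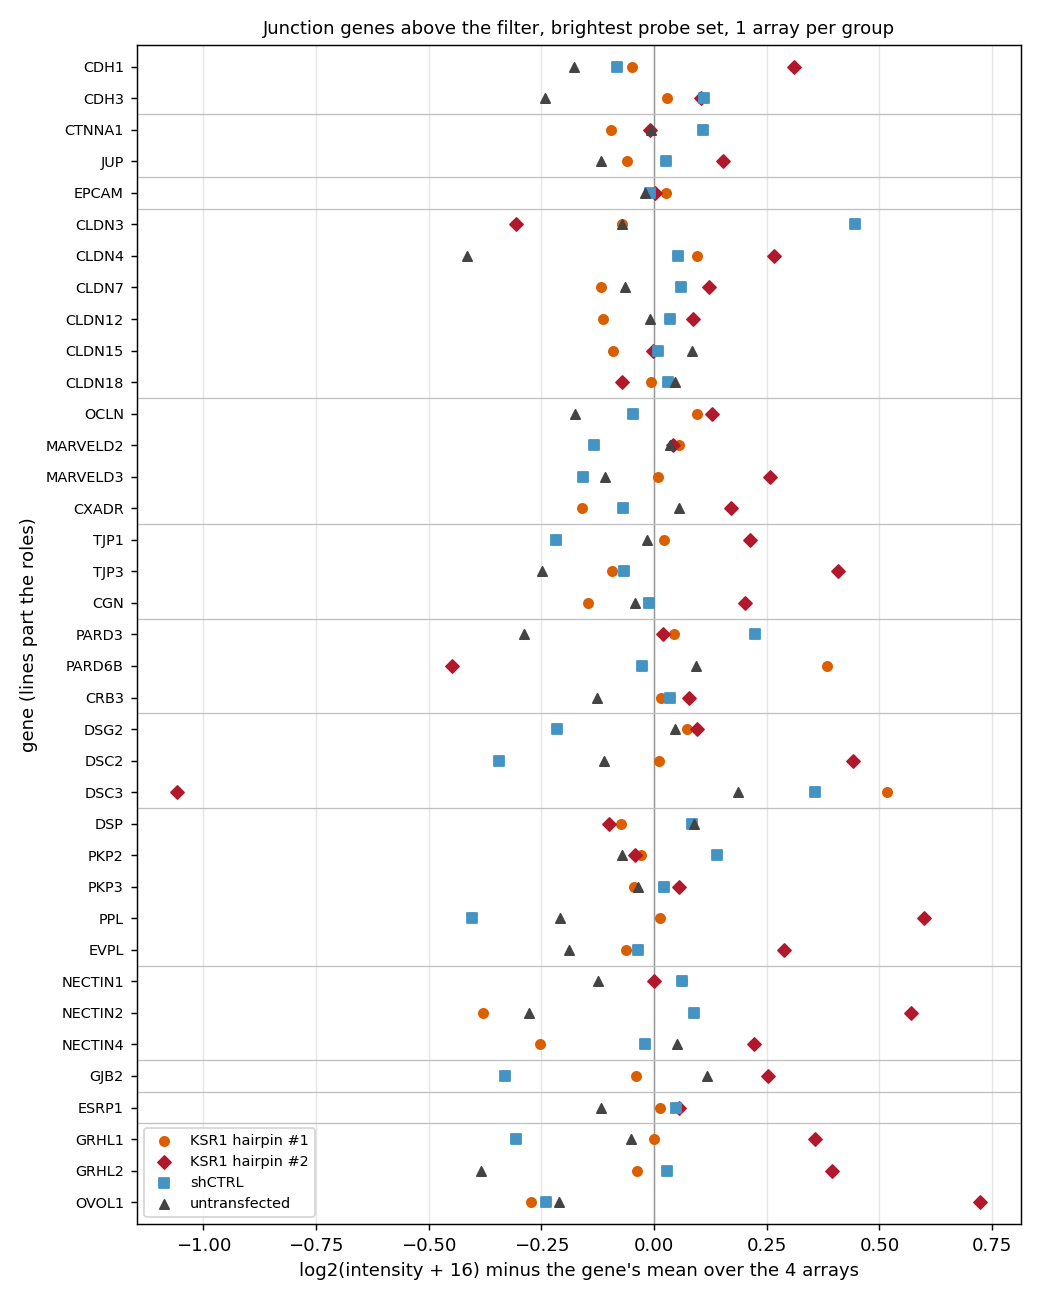
Each row is 1 of the 37 junction genes above the filter, and each symbol is 1 array, placed at its log2(intensity + 16) minus the gene's mean over the 4 arrays. The red diamonds of hairpin #2 lie furthest right for 24 genes, and furthest left for 5, CLDN3, CLDN18, PARD6B, DSC3 and DSP.

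**Figure D2:**
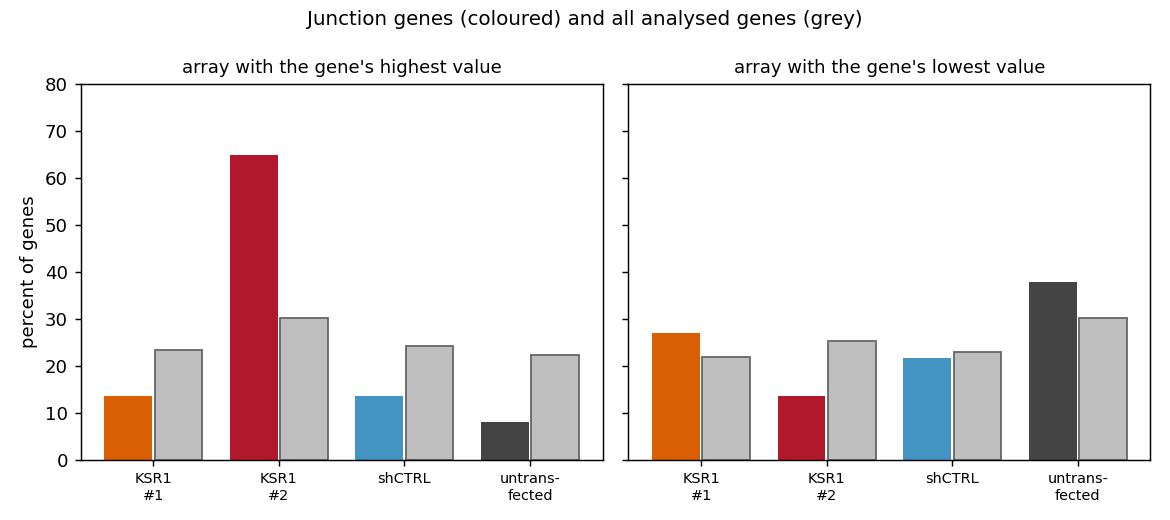
Bars give the percent of the 37 junction genes (coloured) and of all 12468 analysed genes (grey) whose highest (left) or lowest (right) value fell on each array. The bar for highest values on the hairpin #2 array stands at 64.9% for junction genes and 30.1% for all genes.

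Among the classical cadherins of adherens junctions, E-cadherin (CDH1) was highest with hairpin #2. CDH1 read 1816 with hairpin #1 and 2335 with hairpin #2, against 1775 in shCTRL and 1660 in untransfected cells. Hairpin #1 and shCTRL were nearly level, so the groups parted by 0.03 log2 units only, and the difference of means was 0.26 (SE 0.15, limma adjusted p = 0.685). Its dimmer probe set read 87.1 and 94.1 with the hairpins, against 85.6 in shCTRL and 48.4 in untransfected cells, again with little space between hairpin #1 and shCTRL. P-cadherin (CDH3), whose gene neighbours CDH1, read 1540 with hairpin #1 and 1623 with hairpin #2, against 1631 in shCTRL and 1275 in untransfected cells, so that the untransfected array alone stood low. N-cadherin (CDH2), which replaces E-cadherin in mesenchymal cells, stayed below the filter, at 33.6 to 38.0 on its brighter probe set. Of 8 mesenchymal markers measured, CDH2 among them, 2 reached the filter, VIM and FN1. VIM read 101 with hairpin #1 and 59.0 with hairpin #2, against 49.4 in shCTRL and 72.7 in untransfected cells. FN1 ranged from 104 to 155.

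The catenins that tie cadherin tails to actin differed little. CTNNA1 (alpha-catenin) read 3971 with hairpin #1 and 4217 with hairpin #2, against 4576 in shCTRL and 4222 in untransfected cells, a difference of -0.10 with hairpin #2 and untransfected cells side by side. All 5 of its probe sets had negative differences. Plakoglobin (JUP), shared by adherens junctions and desmosomes, read 1373 and 1594 with hairpins #1 and #2, against 1459 in shCTRL and 1319 in untransfected cells, and the groups overlapped. Beta-catenin (CTNNB1), from the list of other adherens genes, ranged from 5803 to 6202 over the 4 arrays.

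The claudin genes CLDN3, CLDN4, CLDN7, CLDN12, CLDN15 and CLDN18, were bright enough to be analysed, and CLDN1, CLDN2 and CLDN23 were not. CLDN4, a sealing claudin, read 494 with hairpin #1 and 559 with hairpin #2, against 479 in shCTRL and 342 in untransfected cells. Most of its difference of 0.36 therefore came from the low untransfected array, and it was 0.13 without that array. The second CLDN4 probe set, barely above the filter, went the other way, at 54.1 and 55.1 with the hairpins, against 59.8 in shCTRL and 62.4 in untransfected cells.

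CLDN3, the neighbour of CLDN4, was set apart by shCTRL. Its brighter probe set read 235 with hairpin #1 and 197 with hairpin #2, against 343 in shCTRL and 235 in untransfected cells, and the dimmer one read 113 and 99.7, against 203 and 114. On both probe sets shCTRL was the high array, and hairpin #1 lay beside untransfected cells. Hairpin #1 minus shCTRL was -0.517 for CLDN3, the only member beyond the 95th percentile of all genes in that pair of arrays, 0.484. That difference was still just within the yardstick, which is 0.523 before rounding. Hairpin #2 minus shCTRL was -0.75 for CLDN3.

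The remaining analysed claudins differed by less than the yardstick. CLDN7 ranged from 1634 to 1931 and CLDN12 from 812 to 935, both lowest with hairpin #1 and highest with hairpin #2. CLDN15 was 301 and 321 with the hairpins, against 324 in shCTRL and 342 in untransfected cells, a difference of -0.09. CLDN18, a gastric and lung claudin, lay near the filter at 53.9 to 59.8. Of the dim genes, CLDN23 alone showed a spread over 0.5 log2 units, with 43.3 for hairpin #1 and 80.9 for hairpin #2, against 50.01 in shCTRL and 37.2 in untransfected cells.

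Occludin (OCLN), a membrane protein of the tight junction strand, lay above both other arrays with both hairpins on each probe set. It read 1540 with hairpin #1 and 1577 with hairpin #2, against 1395 in shCTRL and 1275 in untransfected cells. A second OCLN probe set read 212 and 194 with the hairpins, against 147 in shCTRL and 159 in untransfected cells. All 4 OCLN probe sets put both hairpin arrays above both others, with differences of 0.05 to 0.37, and the difference on the brightest was 0.22 (SE 0.10, limma adjusted p = 0.669).

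Tricellulin (MARVELD2), which seals the corners where cells meet, read 620 and 613 with the hairpins, against 542 in shCTRL and 611 in untransfected cells, so its gap was 0.01. MARVELD3 read 242 with hairpin #1 and 291 with hairpin #2, against 214 in shCTRL and 222 in untransfected cells. Its 3 probe sets all had the hairpin arrays on top, and the difference on the brightest was 0.27. CXADR, the coxsackievirus and adenovirus receptor at tight junctions, read 1935 and 2437 with hairpins #1 and #2, against 2062 in shCTRL and 2248 in untransfected cells, and on this probe set the groups overlapped. They also overlapped on the next brightest, but a dimmer CXADR probe set above the filter had 247 and 264 with the hairpins, against 220 in shCTRL and 200 in untransfected cells, with both hairpin arrays on top.

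In the tight junction plaque, TJP1 (ZO-1), which links claudins and occludin to actin, read 3032 with hairpin #1 and 3459 with hairpin #2, against 2564 in shCTRL and 2950 in untransfected cells. The dimmer TJP1 probe set read 244 and 263 with the hairpins, against 194 in shCTRL and 218 in untransfected cells, in the same order of arrays. TJP3 (ZO-3) had 164 with hairpin #1 and 238 with hairpin #2, against 167 in shCTRL and 145 in untransfected cells, so hairpin #2 alone stood high. Cingulin (CGN), a plaque protein that binds myosin, read 173 and 225 with hairpins #1 and #2, against 192 and 188 in shCTRL and untransfected cells, and its dimmer probe set ranged only from 65.9 to 69.9.

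Polarity genes showed no common order of arrays. PARD3, a scaffold of the apical polarity complex, read 435 with hairpin #1 and 427 with hairpin #2, against 495 in shCTRL and 342 in untransfected cells. On this probe set shCTRL minus untransfected was 0.51, just within the yardstick. On the others it was 0.53 and 0.77, beyond the yardstick, and 0.51. All PARD3 probe sets had their lowest value in untransfected cells. Its partner PARD6B was the member furthest below all other arrays with hairpin #2 after DSC3, at 720 with hairpin #1 and 397 with hairpin #2, against 537 in shCTRL and 586 in untransfected cells. CRB3, an apical membrane protein, ranged from 246 to 286.

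PPL, DSC3 and DSC2, all desmosomal, had the largest hairpin differences of the 37 members in either direction. The transcription factor OVOL1 was close behind, at 0.452 against 0.454 for DSC2, and the DSC3 difference came from hairpin #2 alone. The other analysed desmosomal genes lay between -0.17 (DSP) and 0.23 (EVPL). Desmocollin 2 (DSC2), an adhesive cadherin of desmosomes, read 1256 with hairpin #1 and 1699 with hairpin #2, against 979 in shCTRL and 1153 in untransfected cells. Its other probe sets read 219 and 281 with the hairpins, against 137 and 167 in shCTRL and untransfected cells, then 149 and 250.6, against 83.1 and 125, and 66.2 and 63.96, against 45.7 and 43.2. All 4 probe sets had both hairpin arrays above both others, with differences of 0.42 to 0.83. On the brightest the difference was 0.45 (SE 0.18, limma adjusted p = 0.668), 0.67 without hairpin #1 and 0.24 without hairpin #2.

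Desmocollin 3 (DSC3), best known from the basal layers of stratified epithelia, was low with hairpin #2 alone. It read 96.2 with hairpin #1 and 21.7 with hairpin #2, against 84.5 in shCTRL and 73.4 in untransfected cells. The second probe set gave 96.5 and 25.8 with the hairpins, against 62.0 in shCTRL and 55.7 in untransfected cells, and the dimmest also had its lowest value with hairpin #2, at 11.9. Hairpin #2 differed by -1.58 from hairpin #1, -1.42 from shCTRL and -1.25 from untransfected cells. Its value there lies near the lower quartile of that array, 18.0. The difference of both hairpins minus both other arrays was -0.54, and it was -1.33 without hairpin #1, 0.24 without hairpin #2 and -0.29 with a pseudocount of 64.

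Desmoglein 2 (DSG2) and desmoplakin (DSP) differed by small amounts in opposite directions. DSG2, the desmoglein of simple epithelia, read 4013 and 4078 with the hairpins, against 3284 in shCTRL and 3940 in untransfected cells, so shCTRL was the low array there. Its dimmer probe set read 797 and 1020 with hairpins #1 and #2, against 754 in shCTRL and 796 in untransfected cells. On that probe set hairpin #2 alone stood high. DSP, the plakin that binds keratin filaments, read 3870 with hairpin #1 and 3798 with hairpin #2, against 4318 in shCTRL and 4331 in untransfected cells. The 2 arrays of each side of DSP differed by 0.03 at most, and the difference between sides was -0.17 (SE 0.09, limma adjusted p = 0.672), the widest gap among the 4 genes that lay below both other arrays. DSG3, a desmoglein of stratified epithelia, was below the filter at 15.8 to 18.6.

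Periplakin (PPL), a plakin of the cornified envelope and desmosomal plaque, had the widest gap of all members. It read 634 with hairpin #1 and 959 with hairpin #2, against 471 in shCTRL and 541 in untransfected cells, on its single probe set. The difference was 0.61 (SE 0.22, limma adjusted p = 0.668), and it was 0.90 without hairpin #1 and 0.32 without hairpin #2. Envoplakin (EVPL), its partner, read 149 and 195 with hairpins #1 and #2, against 152 in shCTRL and 135 in untransfected cells, high with hairpin #2 only. Among the plakophilins, which cluster desmosomal cadherins, PKP2 ranged from 227 to 265 and PKP3 from 547 to 587, and PKP1 was below the filter. A dimmer PKP3 probe set read 201 and 222 with the hairpins, against 186 in shCTRL and 163 in untransfected cells, with both hairpin arrays on top.

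**Figure D3:**
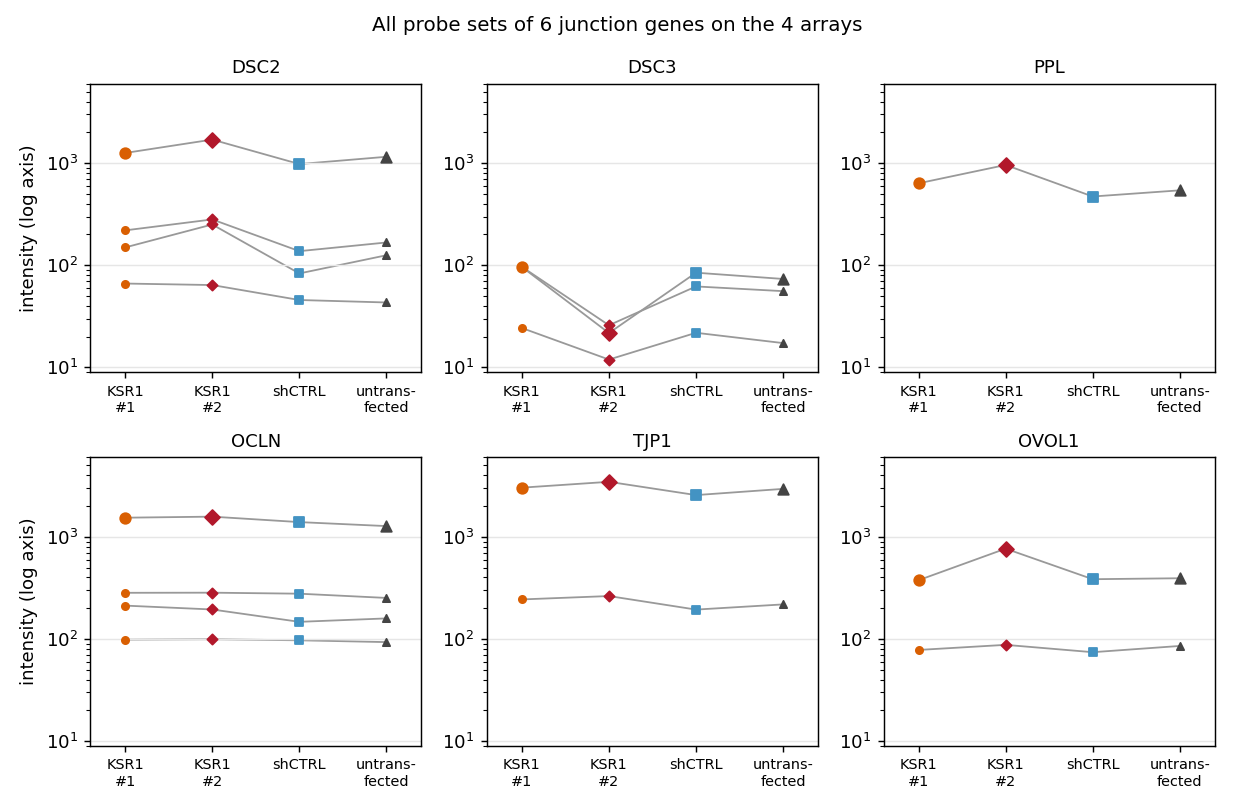
Each line is 1 probe set of the gene named above the panel, with its intensity (log axis) on the 4 arrays, 1 array per group, and the largest symbols mark the brightest probe set. All 4 DSC2 probe sets are lower in shCTRL and untransfected cells than with either hairpin, and the DSC3 lines drop with hairpin #2 alone.

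Nectins, which start cell contacts before cadherins, followed single arrays. NECTIN2 read 276 with hairpin #1 and 548 with hairpin #2, against 387 in shCTRL and 297 in untransfected cells on its brightest probe set. Another NECTIN2 probe set, nearly as bright, read 250 and 374 with the hairpins, against 375 and 349 in shCTRL and untransfected cells. The 2 dimmer probe sets read 87.1 and 145 with the hairpins, against 119 and 81.5 in shCTRL and untransfected cells, and 83.4 and 159, against 101 and 77.8. Hairpin #2 was thus highest on 3 of the 4 probe sets, and the lowest array was hairpin #1 on the brighter pair and untransfected cells on the dimmer pair. NECTIN1 ranged from 158 to 182, and NECTIN4 was 60.7 and 90.6 with hairpins #1 and #2, against 74.2 in shCTRL and 78.8 in untransfected cells. Connexin 26 (GJB2), a gap junction channel protein, read 1013 and 1245 with the hairpins, against 826 in shCTRL and 1131 in untransfected cells, with shCTRL as the low array.

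All 3 epithelial transcription factors measured had their highest value with hairpin #2. GRHL1 read 439 with hairpin #1 and 568 with hairpin #2, against 352 in shCTRL and 424 in untransfected cells. On its dimmer probe set the groups overlapped, at 71.2 and 92.1 with the hairpins, against 51.5 in shCTRL and 72.8 in untransfected cells. GRHL2, which activates CDH1 and claudin genes, read 453 and 616 with the hairpins, against 475 in shCTRL and 352 in untransfected cells. OVOL1, a repressor of mesenchymal genes, read 376 with hairpin #1 and 766 with hairpin #2, against 385 in shCTRL and 393 in untransfected cells. The other 3 arrays were nearly level for OVOL1, and hairpin #2 differed from them by 0.93 to 1.00. Its dimmer probe set showed no such step, at 78.1 and 87.6 with the hairpins, against 74.2 in shCTRL and 85.5 in untransfected cells. The splicing factor ESRP1 ranged from 2147 to 2422 on its brightest probe set, where the groups overlapped, and the other read 1990 and 1969 with the hairpins, against 1828 in shCTRL and 1643 in untransfected cells.

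Between single arrays few members differed by 2-fold. Hairpin #1 against shCTRL gave 0 of 37, beside 0.545% of all genes, and hairpin #1 against untransfected cells 0, beside 0.754%. Hairpin #2 against shCTRL gave 2, DSC3 and PPL, beside 1.9%, and against untransfected cells 1, DSC3, beside 2.28%. DSC3 was also the only one between hairpin #2 and hairpin #1, beside 1.72%. shCTRL against untransfected cells gave 0, beside 0.85%. PPL lay just inside the limit at 1.00 against shCTRL, and OVOL1 just outside at 1.00 against hairpin #1 (0.996 before rounding). These comparisons share arrays and are not independent.

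**Figure D4:**
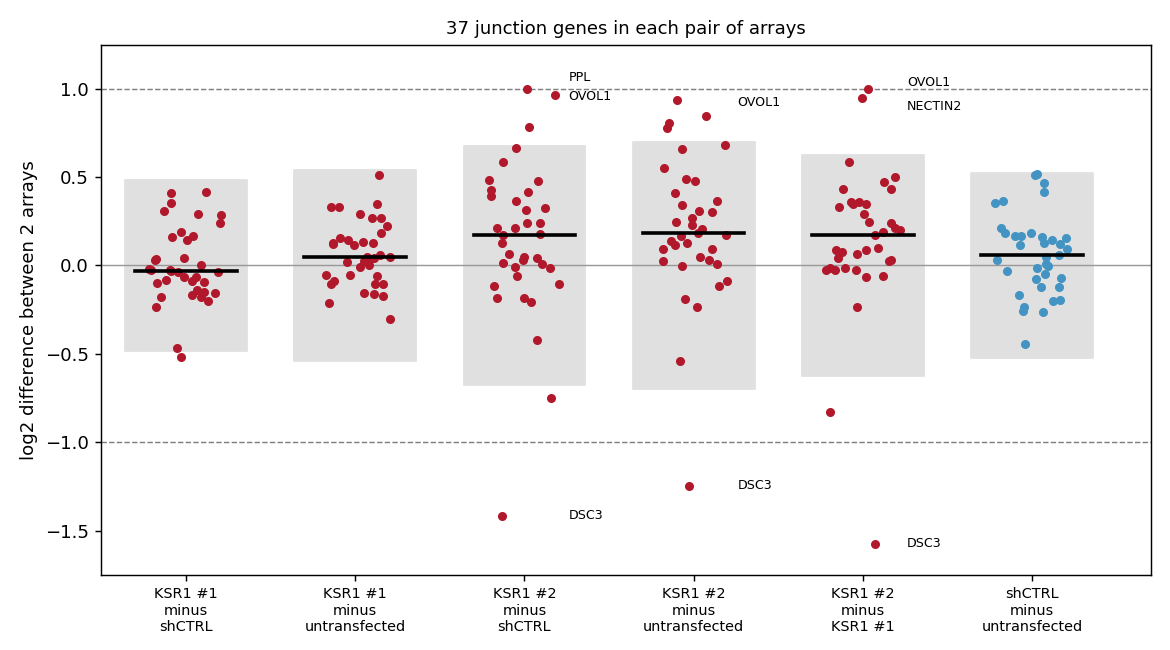
Points are the 37 junction genes in each pair of arrays, as log2 differences (first array minus second), black bars are their medians, and grey bands hold 95% of all analysed genes by absolute difference. Dashed lines mark 2-fold, which DSC3 passes downward in all 3 pairs with hairpin #2 and PPL reaches against shCTRL.

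Several probe sets above the filter were available for 21 of the members, which allowed a check within genes. In 19 of the 21, all such probe sets had hairpin differences of 1 sign, positive in 15 and negative in 4, and CLDN4 and NECTIN2 had both signs. In 7 genes, CDH1, DSC2, DSG2, MARVELD2, MARVELD3, OCLN and TJP1, each of these probe sets had both hairpin arrays above both others. In 0 genes did each have them below. Some of the gaps were slight, at 0.0019 on the dimmer DSG2 probe set and 0.0067 on the brighter MARVELD2 one. Probe sets of 1 gene share their RNA and are not replicates. The same counts over all genes were not made, so these cannot be read as a trait of junction genes.

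Related genes outside the 46 gave no common direction. Over all analysed genes, 22.5% lay above both other arrays with both hairpins and 18.4% lay below both. Of 15 other tight junction genes analysed, 1 lay above both other arrays with both hairpins and 2 below, and of 9 other adherens and polarity genes 2 lay above and 1 below. Of 3 other desmosome genes 1 lay above and 0 below, and of 4 other gap junction genes 0 above and 1 below. LLGL2, a basolateral polarity protein, read 256 and 330 with the hairpins, against 240 in shCTRL and 220 in untransfected cells. LSR, from the other tight junction genes, lay below both, at 893 and 884 with the hairpins, against 1072 in shCTRL and 932 in untransfected cells. Of 5 analysed regulators and partners 2 lay above and 1 below, with ST14, the membrane protease matriptase, at 1148 and 1358, against 1068 and 981. SPINT1, from the same list, lay below both, at 712 and 726 with the hairpins, against 816 in shCTRL and 757 in untransfected cells. Of these lists, only the regulators held genes with a 2-fold difference between any pair of arrays. GRHL3, another grainyhead-like factor, read 45.4 with hairpin #1 and 207 with hairpin #2, against 44.6 in shCTRL and 162 in untransfected cells. TWIST1 and ZEB1, repressors of epithelial genes, were below the filter by their means, TWIST1 at 81.7 and 5.40 with hairpins #1 and #2, against 82.7 in shCTRL and 31.4 in untransfected cells. ZEB1 was at 60.2 and 28.3, against 25.6 and 71.0.

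Of neighbouring listed genes, DSC2 (0.45) and DSC3 (-0.54), and CLDN4 (0.36) and CLDN3 (-0.38), had hairpin differences of opposite sign. Only for DSC2 did both hairpins share the direction on each probe set. DSC3 was low with hairpin #2 alone, CLDN3 was set apart by shCTRL, and the second CLDN4 probe set was at -0.13. DSG3 (-0.09, below the filter) and DSG2 (0.17) also differed in sign. CDH3 (0.13) and CDH1 (0.26), MARVELD2 (0.10) and OCLN (0.22), and CDH2 (-0.07, below the filter) and DSC3 had the same sign. The promoters of DSC2, DSC3, CLDN4 and CLDN3 are shown with that of OCLN, whose probe sets all pointed 1 way. Each is 250 bases before to 50 after an annotated start in RefSeq on GRCh38.p14, where 27 of the 46 listed genes had an entry. Capitals mark CAGGTG or its reverse complement CACCTG, the E-box that ZEB and SNAI factors bind. DSC2 is shown at the upstream of its 2 starts, chr18:31102372-31102671, minus strand, with an E-box at -156, and its other start had none. DSC3 is at chr18:31042693-31042992, minus strand, CLDN4 at chr7:73830746-73831045, plus strand, and CLDN3 at chr7:73770221-73770520, minus strand, with an E-box at 37 bases after the start. OCLN is shown at the downstream of its 2 starts, chr5:69492540-69492839, plus strand, with E-boxes at -133 and 36.
DSC2: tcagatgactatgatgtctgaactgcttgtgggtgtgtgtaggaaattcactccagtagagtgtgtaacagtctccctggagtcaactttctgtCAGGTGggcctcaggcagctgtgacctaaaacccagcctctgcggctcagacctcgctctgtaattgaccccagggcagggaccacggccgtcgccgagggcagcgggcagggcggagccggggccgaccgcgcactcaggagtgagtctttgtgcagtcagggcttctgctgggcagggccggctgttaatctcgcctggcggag
DSC3: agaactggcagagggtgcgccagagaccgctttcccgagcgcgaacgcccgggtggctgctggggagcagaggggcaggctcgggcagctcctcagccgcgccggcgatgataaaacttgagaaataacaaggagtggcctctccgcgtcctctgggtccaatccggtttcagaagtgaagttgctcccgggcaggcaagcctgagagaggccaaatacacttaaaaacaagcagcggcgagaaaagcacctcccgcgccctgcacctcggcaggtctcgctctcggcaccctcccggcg
CLDN4: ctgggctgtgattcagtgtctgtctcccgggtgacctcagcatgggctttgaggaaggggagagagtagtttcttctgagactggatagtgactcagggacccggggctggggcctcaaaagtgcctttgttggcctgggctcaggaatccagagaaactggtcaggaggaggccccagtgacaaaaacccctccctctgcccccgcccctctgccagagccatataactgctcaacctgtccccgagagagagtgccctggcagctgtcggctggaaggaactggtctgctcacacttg
CLDN3: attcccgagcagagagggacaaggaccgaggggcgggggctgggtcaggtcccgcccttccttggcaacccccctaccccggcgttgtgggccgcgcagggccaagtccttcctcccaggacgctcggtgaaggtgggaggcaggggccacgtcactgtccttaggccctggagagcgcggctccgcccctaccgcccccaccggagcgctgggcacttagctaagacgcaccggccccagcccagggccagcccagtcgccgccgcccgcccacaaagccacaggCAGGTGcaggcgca
OCLN: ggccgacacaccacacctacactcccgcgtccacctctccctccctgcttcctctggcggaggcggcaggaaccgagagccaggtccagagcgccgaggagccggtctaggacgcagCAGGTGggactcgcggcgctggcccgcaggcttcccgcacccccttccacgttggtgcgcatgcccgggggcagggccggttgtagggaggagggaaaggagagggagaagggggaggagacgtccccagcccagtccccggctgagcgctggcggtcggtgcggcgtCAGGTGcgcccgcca

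The E-box letters occurred in 14 of 41 promoters of listed genes (34.1%) and in 7231 of 35116 promoters in all (20.6%). The grainyhead-like motif AACCNGTT, read on both strands, occurred in 1 of the 41 (2.44%), that of CGN, and in 1.73% of all. A match describes letters only, and several promoters of 1 gene overlap or share a locus. Of genes above both other arrays with both hairpins, DSC2, OCLN, TJP1 and DSG2 had an E-box at an annotated start. CLDN4, MARVELD2 and GRHL1 had none in this window, and the rest had no promoter entry. Of genes below both other arrays, DSP and CLDN18 had an E-box and CTNNA1 and CLDN15 had none. A link between E-boxes and the differences was not tested.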

How the data were processed

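HCT116 RNA was measured on 4 one-colour Affymetrix arrays, 1 per group. Per the labels' protocols, biotinylated cRNA was made from 2.5 micrograms of total RNA. The deposited values are intensity values on a linear scale (4.72 to 26251), 1 per probe set, with the authors' summary and normalization methods not given in the sources used here. They were converted to log2(intensity + 16) without further scaling. Depth does not apply to arrays, and their number limits the precision. Of all probe sets, 41097 had 1 symbol in the platform annotation, 1801 several and 11777 none. A gene took its probe set with the highest mean, and only probe sets with 1 symbol named a gene. Probe sets of CTNNA1, CLDN3, PARD3 and DSC2 that end in _x_at can share sequence with other transcripts.

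With 1 array per group, comparisons used a size rule of 1 log2 unit. limma (version 3.58.1, R 4.3.3) compared both hairpin arrays with both others over 12468 genes with Benjamini-Hochberg adjustment, on 2 residual degrees of freedom, so that p rests on the spread between hairpins and between kinds of control cells and not on that between cultures. SE is its standard error. By rule, per-array values were for at most the 8 members a side with the largest gaps between both hairpins and both others, and for genes with a 2-fold difference in a pair of arrays. Values of other members by array, and of LLGL2, LSR, ST14, SPINT1, CTNNB1, COL1A1, VIM, FN1 and the keratins, were added after they were seen. The members and lists were chosen with earlier results of these data known. Alternatives were other pseudocounts (1, 64), no filter or the 75th percentile, the mean over probe sets, quantile normalization, median centring and leaving out each array.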

Additional observations from a re-analysis of the deposited data

Results flagged for a closer look

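For 10 of 37 members, on the brightest probe set, one hairpin array lay above and the other below both shCTRL and untransfected cells, a share of 27.0% beside 14.3% of all analysed genes. The difference between the hairpins was not tested, since each had 1 array. As hairpin #2 minus hairpin #1 on the log2 scale, DSC3 was at -1.58 and the polarity gene PARD6B at -0.832. The others were higher with hairpin #2, OVOL1 at 0.996, NECTIN2 at 0.95, NECTIN4 at 0.475, CGN at 0.35, CXADR at 0.33, CLDN7 at 0.239, CLDN12 at 0.199 and PKP3 at 0.1. DSC3 and PARD6B were the 2 of these 10 with hairpin #2 on the low side. Among all genes, the absolute difference between the hairpins was under 0.62 for 95%, which 4 of the 37 members exceeded.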

How the results depend on the processing

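Leaving out 1 array at a time, which can only keep or raise the counts by direction, the count above the other arrays lay between 12 and 26, against 11 with all arrays, the count below between 4 and 12, against 4, and the median difference between 0.0198 (without untransfected cells) and 0.178 (without hairpin #1), against 0.09. Over all genes, the shares in these settings were 35.8% to 39.7% above and 31.3% to 33.5% below. The 2-fold gap was met by 0 to 1 members, DSC3 without hairpin #1, where hairpin #2 stands alone. The count below was 2 with the mean over probe sets and 2 with median centring. After quantile normalization the count above was 8, the count below 6 and the median difference 0.0448. Shares over all genes were not computed in these settings.

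Of 2-fold pair counts, hairpin #2 against shCTRL gave 0 with a pseudocount of 64 and 1 with the stricter filter, with the mean over probe sets and after quantile normalization. Hairpin #2 against untransfected cells gave 0 with a pseudocount of 64, the stricter filter and the mean over probe sets. Hairpin #2 against hairpin #1 gave 2 with a pseudocount of 1 and after quantile normalization, and 0 with a pseudocount of 64, the stricter filter and the mean over probe sets. Without a filter, the member median of hairpin #2 was 0.0884 against hairpin #1 and 0.0937 against shCTRL, with the 6 dim genes included. The number of members highest with hairpin #2 lay between 20 of 30 and 26 of 43 in the settings other than leaving out arrays. The limma count was 0 in each setting, and the causes of these shifts were not tested beyond the genes each setting adds or removes.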

Other observations

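GRHL3 and the differentiation keratin KRT20 were both low with hairpin #1 and in shCTRL cells and high with hairpin #2 and in untransfected cells. KRT20 read 52.5 with hairpin #1 and 275 with hairpin #2, against 63.7 in shCTRL and 166 in untransfected cells. TWIST1, though dim, had the opposite order of arrays to GRHL3, with 81.7 and 5.40 for hairpins #1 and #2, against 82.7 in shCTRL and 31.4 in untransfected cells. These genes were singled out after their values were seen, and these differences between single arrays were not tested.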
